A study of Homo sapiens with 4 samples.

Results

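Collagen chain genes were taken as the rows of the gene table whose symbol is COL, a number, A and a number, which gave 44 genes of 25690 rows. PolyA RNA was sequenced from H9, a human embryonic stem cell line, at day 7, in cells that the series calls non-neural ectoderm. The tested cells carry the genotype label TFAP2A knockout and the others are labelled WT, with 2 libraries of each. TFAP2A encodes an AP-2 transcription factor of the ectoderm and neural crest. The titles of the knockout libraries name TFAP2C instead, and no clone, guide or growth protocol is given in the labels used here. The libraries held 19305868 and 21797850 counts in the samples labelled knockout and 17945210 and 17838204 counts in WT.

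TFAP2A itself was at 133 and 121 CPM in the libraries labelled knockout and at 171 and 198 CPM in WT, so most of its transcript remained (log2 fold change -0.54, SE 0.07, adjusted p = 0.000125). TFAP2C, the related AP-2 gene that the titles name, was at 8.91 and 5.77 CPM in the libraries labelled knockout and at 27.5 and 30.6 CPM in WT, a 3.98-fold fall (log2 fold change -1.99, SE 0.17, adjusted p = 6.66e-06). These values do not settle which gene was targeted. CPM are counts scaled to the TMM-adjusted size of each library. Each adjusted p comes from the quasi-likelihood test of edgeR, corrected by Benjamini-Hochberg across 15643 tested genes, with a threshold of 0.05. Every group has n = 2 libraries, which the labels do not describe as separate cultures, so the p-values measure the spread between these libraries and this may be technical. Fold changes are libraries labelled knockout over WT. Levels of different collagen chain genes are compared as CPM per kb of the longest protein-coding GENCODE transcript, and summed levels are in CPM, to which long transcripts add more.

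Collagens are extracellular proteins made of alpha chains that wind into a helix, as trimers of identical or different chains, so the chain genes a cell transcribes limit which collagens it can assemble. Fibrillar collagens form the fibers of connective tissue, type IV forms the sheet of basement membranes under epithelia, type VI forms beaded microfibrils, and the FACIT group binds the surface of fibrils. Transmembrane collagens sit in the plasma membrane, among them the hemidesmosome component COL17A1. In the embryo, ectoderm rests on a type IV collagen sheet, while mesenchyme supplies most fibrillar collagen.

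Collagen transcripts made up 1.302% and 1.41% of all counts in the libraries labelled knockout and 1.58% and 1.61% in WT. Their summed level was 12877 and 14119.7 CPM in the libraries labelled knockout and 15836 and 16261 CPM in WT. The groups did not overlap, but 2 libraries against 2 cannot give an exact two-sided permutation p below 0.333. These are bulk libraries, so fewer cells of a type and less RNA per cell cannot be told apart. Most of this level came from COL3A1, COL1A1 and COL1A2, the only 3 members above 1000 CPM in WT, which held 67.3% and 70.7% of the collagen level in the libraries labelled knockout and 67.3% and 67.8% in WT.

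Of the 44 members, 35 had enough counts to be tested. Among these, 7 rose, 23 fell and 5 did not pass, against a background of 44.2% of all tested genes called, 21.9% higher and 22.3% lower. The median log2 fold change of the tested members was -0.54, against 0.00 over all genes tested. Of these, 2 rose and 15 fell by a log2 fold change of 1 or more, against 4.49% and 6.77% of all genes. The 3 members above 1000 CPM, averaged over the genotypes, had log2 fold changes of -0.32 to -0.05. The 14 between 100 and 1000 CPM covered the widest range, -3.81 to 1.39, and the 8 between 10 and 100 CPM, none of which rose, had a median of -1.48. A member detected only in the genotype where it is high passes the count filter through that genotype, so these shares describe the members tested and not the family.

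**Figure D1:**
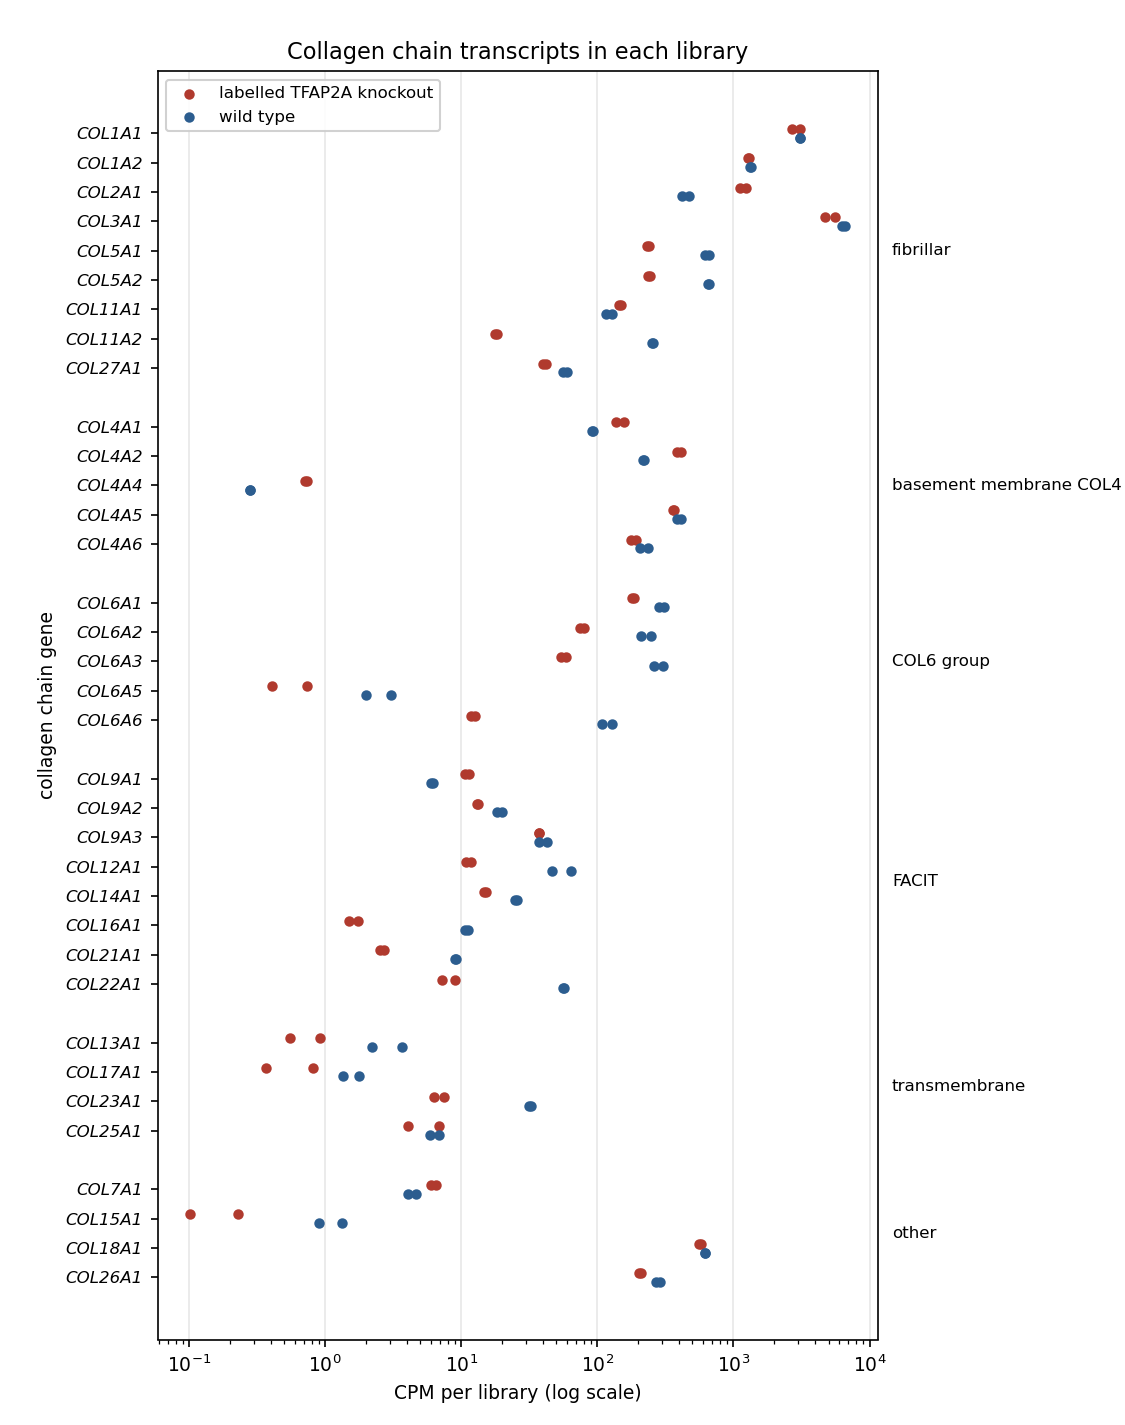
Level of each of the 35 tested collagen chain genes in each library, in CPM on a log axis, ordered by class, with libraries labelled TFAP2A knockout in red above WT in blue. COL3A1, COL1A1 and COL1A2 sit above 1000 CPM in all 4 libraries, while COL11A2, COL6A3, COL6A6 and COL22A1 show a wide gap between the genotypes.

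The gene surroundings were nearly level. The median log2 fold change of other genes (mean of at least 5 CPM) within 5 Mb of a tested member lay between -0.22 and 0.17, with a median of -0.04 over the 35 members.

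The fibrillar class did not move as a block. Of its 11 genes 9 were tested, and 2 rose, 5 fell and 2 did not pass, against 21.9% higher and 22.3% lower of all genes tested. The median log2 fold change of the class was -0.32. COL11A2 (chromosome 6, 33130469 to 33160245, minus strand, hg19), a chain of the cartilage fibril collagen type XI, showed the largest change of the tested members. It had 18.4 and 17.9 CPM in the libraries labelled knockout, against 252 and 257 CPM in WT. The genotypes lay far apart and their replicates close together, and COL11A2 differed 14.02-fold and was the lower in the libraries labelled knockout (log2 fold change -3.81, SE 0.06, adjusted p = 3.50e-14). Its partner COL11A1 (chromosome 1, 103342023 to 103574052, minus strand, hg19) moved the other way, with 145 and 151 CPM in the libraries labelled knockout, against 127 and 116 CPM in WT (log2 fold change 0.28, SE 0.06, adjusted p = 0.00134). Per kb, COL11A2 was at 0.145 and 0.135 times the level of COL11A1 in the libraries labelled knockout, and at 2.26 and 2.52 times that level in WT. The order of these partner chains was therefore inverted between the genotypes.

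COL2A1 (chromosome 12, 48366748 to 48398285, minus strand, hg19), the fibril chain of cartilage and notochord whose product also serves as a chain of type XI collagen, had the largest rise of the fibrillar class. It had 1229 and 1115 CPM in the libraries labelled knockout, against 475 and 420.1 CPM in WT, 2.62-fold higher (log2 fold change 1.39, SE 0.07, adjusted p = 1.11e-08). Per kb it reached 0.604 and 0.483 times the level of COL1A1 in the libraries labelled knockout, against 0.204 and 0.179 times in WT, and it ranked 4 among the 44 members in the libraries labelled knockout and 7 in WT. Of 8 cartilage markers 5 were tested, and 0 rose and 2 fell, against 21.9% higher and 22.3% lower of all genes tested. Their summed level was 127 and 165 CPM in the libraries labelled knockout and 275 and 291 CPM in WT. Most of that difference was HAPLN1, a cartilage link protein gene, at 25.8 and 24.7 CPM in the libraries labelled knockout and 136 and 144 CPM in WT. SOX9, a transcription factor that activates COL2A1 in cartilage, was at 22.02 and 29.3 CPM in the libraries labelled knockout and 45.1 and 51.5 CPM in WT (log2 fold change -0.91, SE 0.13, adjusted p = 0.00113). SOX6, a partner of SOX9, did not pass, at 73.95 and 107 CPM in the libraries labelled knockout and 87.9 and 91.2 CPM in WT. ACAN, the cartilage proteoglycan gene, did not pass either and was between 0.367 and 0.717 CPM in all 4 libraries.

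The type V chain genes, which encode collagens that limit the diameter of type I fibrils, fell together. COL5A1 (chromosome 9, 137533651 to 137736688, plus strand, hg19) had 233 and 238 CPM in the libraries labelled knockout, against 620.4 and 657 CPM in WT (log2 fold change -1.44, SE 0.05, adjusted p = 3.83e-11). COL5A2 (chromosome 2, 189896641 to 190044605, minus strand, hg19) had 245 and 236 CPM in the libraries labelled knockout, against 645 and 667 CPM in WT (log2 fold change -1.45, SE 0.05, adjusted p = 3.005e-11). These genes lie on different chromosomes, and their ratio per kb was nearly level, 0.795 and 0.843 in the libraries labelled knockout and 0.804 and 0.823 in WT. Chains of types V and XI can assemble with each other, and COL11A1 stood at 0.719 and 0.731 times the per-kb level of COL5A1 in the libraries labelled knockout and at 0.237 and 0.205 times in WT. An overlapping non-coding row on the other strand of COL5A1, LOC101448202, was at 3.07 and 3.02 CPM in the libraries labelled knockout and 7.72 and 8.17 CPM in WT, and the sources here do not say whether reads were counted by strand.

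COL1A1 and COL1A2, the chains of type I collagen in skin, bone and tendon, did not pass. COL1A1 had 2699 and 3066 CPM in the libraries labelled knockout, against 3085 and 3106 CPM in WT (adjusted p = 0.208), and it passed without knockout replicate 2 (log2 fold change -0.19, adjusted p = 0.0227). COL1A2 had 1284 and 1295 CPM in the libraries labelled knockout, against 1328 and 1349 CPM in WT (adjusted p = 0.412). Their ratio per kb was 1.69 and 1.904 in the libraries labelled knockout and 1.87 and 1.85 in WT, so it overlapped. COL3A1, the chain of reticular fibrils and the most abundant member per kb in both genotypes, had 4682 and 5619 CPM in the libraries labelled knockout, against 6247 and 6574 CPM in WT. It fell by 0.32 on the log2 scale (SE 0.08, adjusted p = 0.00788), but the adjusted p was 0.0504 without knockout replicate 1, 0.054 without WT replicate 2 and 0.078 with DESeq2. COL3A1 lies 19168 bp from COL5A2 on chromosome 2, tail to tail, and the neighbors changed by different amounts.

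COL27A1, a fibrillar chain of developing cartilage, had 40.05 and 42.2 CPM in the libraries labelled knockout, against 56.03 and 60.3 CPM in WT (log2 fold change -0.50, SE 0.07, adjusted p = 5.08e-05). COL24A1 and COL5A3 were not tested, at 0.596 CPM or less in every library.

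**Figure D2:**
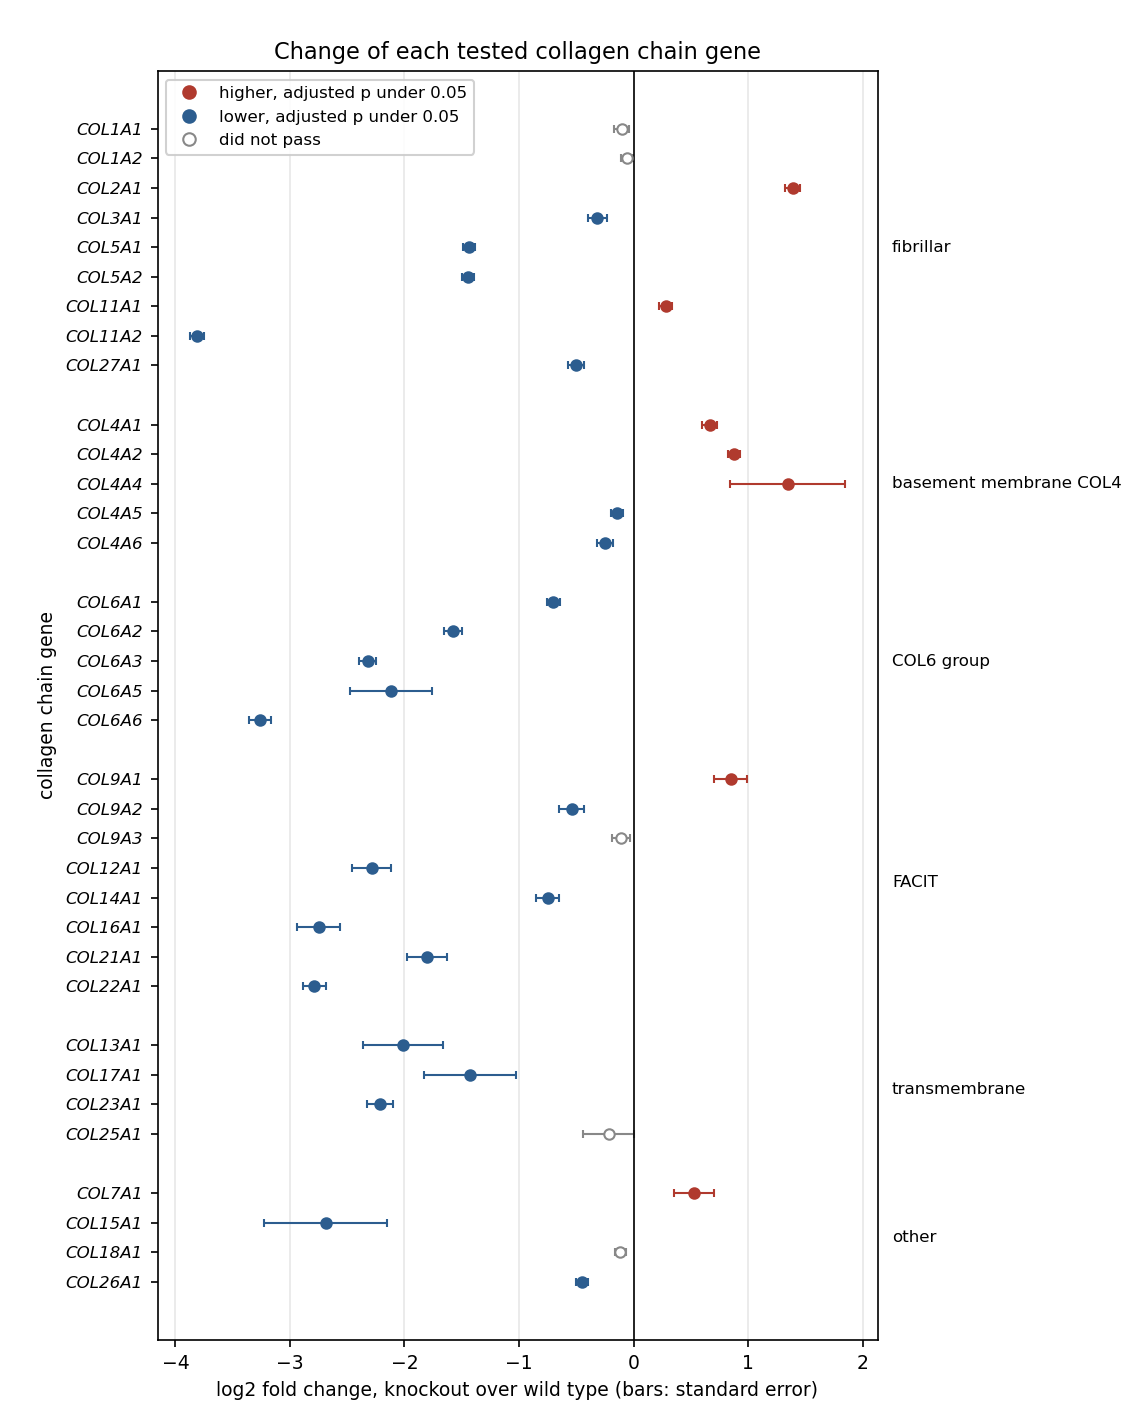
Log2 fold change of the 35 tested collagen chain genes, libraries labelled knockout over WT, with standard errors as bars and genes ordered by class. Filled red points rose, filled blue points fell and open gray points did not pass, with COL11A2 at -3.81 and COL2A1 at 1.39 in the same class and all 5 genes of the COL6 group left of 0.

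All 5 genes of the COL6 group were tested and fell, against 22.3% of all genes tested. Their median log2 fold change was -2.12. The summed level was 326 and 332 CPM in the libraries labelled knockout, against 931 and 927 CPM in WT. COL6A1, COL6A2 and COL6A3 encode the chains of the main type VI microfibril, and their falls differed in size. COL6A1 (chromosome 21, 47401663 to 47424963, plus strand, hg19) had 179 and 186 CPM in the libraries labelled knockout, against 309 and 284 CPM in WT (log2 fold change -0.70, SE 0.05, adjusted p = 1.14e-07). COL6A2, 93069 bp downstream of it on the same strand, had 74.9 and 79.7 CPM in the libraries labelled knockout, against 249.97 and 211 CPM in WT (log2 fold change -1.57, SE 0.08, adjusted p = 1.04e-07). COL6A3 (chromosome 2, 238232655 to 238322850, minus strand, hg19) had 58.6 and 54.3 CPM in the libraries labelled knockout, against 262 and 302 CPM in WT (log2 fold change -2.32, SE 0.07, adjusted p = 2.85e-10). For each of these genes both libraries labelled knockout were below both WT libraries. The same order held for COL1A1, COL1A2 and COL18A1, which did not pass, so it is no mark of a called change.

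The balance of the partner chains differed between the genotypes. COL6A1 stood at 1.95 and 1.900 times the per-kb level of COL6A2 in the libraries labelled knockout, and the pair was nearly even in WT, at 1.01 and 1.101. COL6A3 stood at 0.129 and 0.115 times the per-kb level of COL6A1 in the libraries labelled knockout, and at 0.334 and 0.419 times in WT. COL6A5 and COL6A6 encode chains related to that of COL6A3 and lie next to each other on chromosome 3, 75487 bp apart. COL6A6 (130279178 to 130395888, plus strand, hg19) had 12.7 and 11.9 CPM in the libraries labelled knockout, against 108 and 128 CPM in WT, a 9.59-fold fall (log2 fold change -3.26, SE 0.09, adjusted p = 2.21e-11). COL6A5 had 0.4097 and 0.733 CPM in the libraries labelled knockout, against 2.01 and 3.06 CPM in WT (log2 fold change -2.12, SE 0.36, adjusted p = 0.000261).

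Start-site sequences are shown for COL11A2 and for COL6A2, COL6A3 and COL6A6, because COL11A2 and COL6A6 had the largest falls among the tested members and the type VI genes fell together. Each is 250 bases before to 50 after a transcription start in RefSeq (GRCh38.p14), 5′ to 3′ on the gene's strand. Capitals mark GCCNNNGGC or GCCNNNNGGC, palindromic forms of the GC-rich element that AP-2 proteins bind, which read the same on both strands and were searched without regard to overlap with other motifs. COL11A2 has 4 starts in the RefSeq table used, of which the one shown (minus strand, chr6:33193088-33193387) holds 2 matches of the longer form and the others none. The values here are per gene and do not say which start these cells used. COL6A2 is chr21:46097862-46098161 (plus strand), COL6A3 is chr2:237414115-237414414 (minus strand) and COL6A6 is chr3:130516927-130517226 (plus strand).
COL11A2: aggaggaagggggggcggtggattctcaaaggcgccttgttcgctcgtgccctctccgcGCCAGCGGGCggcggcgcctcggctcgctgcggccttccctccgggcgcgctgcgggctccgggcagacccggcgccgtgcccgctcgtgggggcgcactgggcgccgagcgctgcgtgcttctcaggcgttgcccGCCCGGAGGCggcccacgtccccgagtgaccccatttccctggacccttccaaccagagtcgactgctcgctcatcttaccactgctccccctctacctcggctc
COL6A2: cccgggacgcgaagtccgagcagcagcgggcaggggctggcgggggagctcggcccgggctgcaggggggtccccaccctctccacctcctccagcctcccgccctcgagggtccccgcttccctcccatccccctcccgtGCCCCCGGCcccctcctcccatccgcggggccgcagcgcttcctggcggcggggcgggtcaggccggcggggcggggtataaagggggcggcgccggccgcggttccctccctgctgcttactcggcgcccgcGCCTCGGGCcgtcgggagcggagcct
COL6A3: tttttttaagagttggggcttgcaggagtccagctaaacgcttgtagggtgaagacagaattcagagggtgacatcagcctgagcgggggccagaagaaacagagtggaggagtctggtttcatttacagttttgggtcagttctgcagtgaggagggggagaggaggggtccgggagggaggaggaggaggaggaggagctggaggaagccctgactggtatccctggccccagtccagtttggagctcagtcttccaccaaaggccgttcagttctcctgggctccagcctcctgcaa
COL6A6: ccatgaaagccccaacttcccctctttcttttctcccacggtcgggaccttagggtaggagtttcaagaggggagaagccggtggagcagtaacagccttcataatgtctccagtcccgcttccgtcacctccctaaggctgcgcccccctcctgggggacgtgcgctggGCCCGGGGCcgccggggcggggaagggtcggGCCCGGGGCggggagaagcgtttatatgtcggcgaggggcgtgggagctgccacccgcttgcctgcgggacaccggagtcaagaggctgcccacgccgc
COL6A2 and COL6A6 hold 2 matches each of the shorter form, and COL6A3 holds neither form in this window. A link between matches and expression was not tested.

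Across the family, 32 of the 44 members matched the table of RefSeq start-site windows used here, with 44 windows in all. Either form was found in 36.4% of these windows, against 36.7% of all 35116 windows. The shorter form was in 29.5% of members' windows and 23.2% of all, and the longer form in 11.4% and 21.4%. The members' windows had a median GC content of 63.7%, against 58.7% over all windows. COL1A1, COL1A2, COL2A1, COL3A1, COL5A2, COL6A1, COL6A5, COL8A1, COL9A3, COL14A1, COL20A1 and COL22A1 were not matched. A match describes letters in a window and no binding was measured.

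Type IV chain genes did not all move the same way. They lie in head-to-head pairs, COL4A1 with COL4A2 on chromosome 13, COL4A3 with COL4A4 on chromosome 2, and COL4A5 with COL4A6 on the X chromosome. Of 6 genes 5 were tested, and 3 rose and 2 fell, against 21.9% and 22.3% of all genes tested. The calls of COL4A4, COL4A5 and COL4A6 were lost in some alternative fits. COL4A1 and COL4A2, whose products form the main collagen of nearly every basement membrane, rose together. COL4A1 (chromosome 13, 110801310 to 110959496, minus strand, hg19) had 137 and 157 CPM in the libraries labelled knockout, against 91.9 and 93.3 CPM in WT (log2 fold change 0.67, SE 0.07, adjusted p = 2.27e-06). COL4A2 (110959631 to 111165373, plus strand, hg19) had 388 and 413 CPM in the libraries labelled knockout, against 215 and 221 CPM in WT (log2 fold change 0.88, SE 0.05, adjusted p = 6.36e-09). COL4A2-AS1, on the other strand inside COL4A2, was at 3.89 and 3.12 CPM in the libraries labelled knockout and 2.35 and 1.93 CPM in WT, a small level beside that of COL4A2.

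The start-site windows of COL4A1 and COL4A2 are shown because both genes rose and their starts lie close together. Their RefSeq starts lie 127 bp apart and the windows share 226 bases, read on opposite strands. COL4A1 is chr13:110307108-110307407 (minus strand) and COL4A2 is chr13:110307034-110307333 (plus strand), both GRCh38.p14, with the capitals as above.
COL4A1: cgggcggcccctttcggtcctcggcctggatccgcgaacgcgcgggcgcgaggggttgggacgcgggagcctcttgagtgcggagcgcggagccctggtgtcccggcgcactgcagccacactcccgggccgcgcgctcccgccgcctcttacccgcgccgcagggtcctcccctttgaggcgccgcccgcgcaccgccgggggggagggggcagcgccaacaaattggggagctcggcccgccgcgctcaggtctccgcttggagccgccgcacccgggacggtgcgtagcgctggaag
COL4A2: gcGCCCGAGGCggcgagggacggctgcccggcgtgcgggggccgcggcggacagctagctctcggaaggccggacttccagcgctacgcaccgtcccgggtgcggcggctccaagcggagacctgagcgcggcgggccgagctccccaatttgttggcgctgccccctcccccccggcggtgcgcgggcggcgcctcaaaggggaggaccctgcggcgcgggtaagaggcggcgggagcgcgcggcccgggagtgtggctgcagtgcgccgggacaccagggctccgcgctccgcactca
The only match lies at the far end of the COL4A2 window, outside the bases that the windows share.

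COL4A5 and COL4A6, whose products form a type IV network in the basement membranes of skin and smooth muscle, were slightly lower. COL4A5 (chromosome X, 107683074 to 107940775, plus strand, hg19) had 359 and 363 CPM in the libraries labelled knockout, against 383 and 415 CPM in WT (log2 fold change -0.14, SE 0.05, adjusted p = 0.0405). That call is not firm, since the adjusted p was 0.124 without knockout replicate 1, 0.0874 without knockout replicate 2, 0.338 without WT replicate 2 and 0.0538 with the replicate number as a block, and it was also lost with DESeq2 and with upper-quartile factors. COL4A6 had 193 and 178 CPM in the libraries labelled knockout, against 205 and 235 CPM in WT (log2 fold change -0.25, SE 0.07, adjusted p = 0.0128), and its call was lost without knockout replicate 2 (adjusted p = 0.121) or WT replicate 2 (adjusted p = 0.131). The ratio within this pair overlapped between genotypes, at 1.94 and 2.12 in the libraries labelled knockout and 1.95 and 1.83 in WT. The ratio of COL4A1 to COL4A2 per kb did not overlap, at 0.346 and 0.373 in the libraries labelled knockout and 0.420 and 0.414 in WT. Between the pairs there was no overlap either. COL4A2 was at 2.09 and 2.41 times the per-kb level of COL4A6 in the libraries labelled knockout, against 1.09 and 0.977 times in WT.

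COL4A3 and COL4A4 belong to the type IV network of the kidney filter and were close to the limit of detection. COL4A4 had 14 and 15.5 counts in the libraries labelled knockout and 5 counts in each WT library, and its adjusted p of 0.0413 was between 0.142 and 0.167 without any library in turn, 0.0626 with the replicate number as a block, 0.342 with DESeq2 and 0.0588 with no low-count filter. COL4A3, not tested, had 2 and 3 counts in the libraries labelled knockout and 6 and 3.5 counts in WT.

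**Figure D3:**
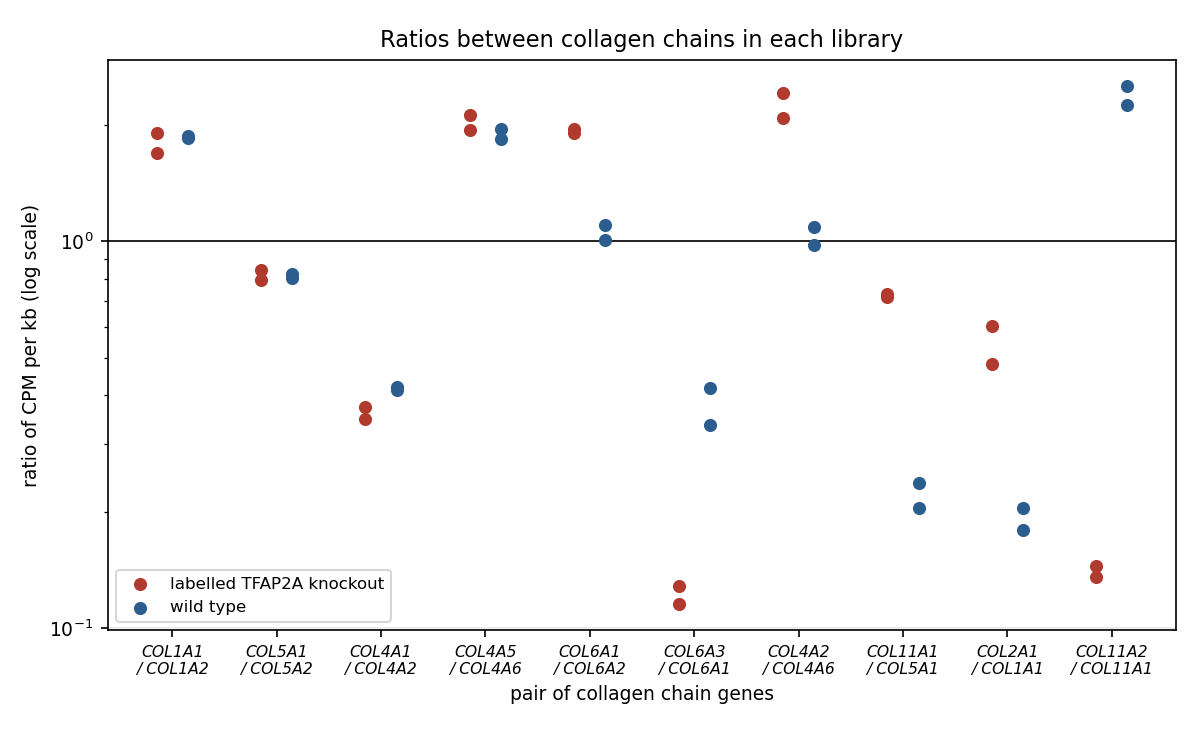
Ratio of CPM per kb between 10 pairs of collagen chain genes in each library, on a log axis, with libraries labelled TFAP2A knockout in red left of WT in blue and a line at 1. The ratios COL1A1 to COL1A2, COL5A1 to COL5A2 and COL4A5 to COL4A6 overlapped between the genotypes, while COL11A2 to COL11A1 lay above 2 in both WT libraries and below 0.2 in both libraries labelled knockout.

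Of 10 FACIT collagen genes 8 were tested, and 1 rose, 6 fell and 1 did not pass, against 21.9% higher and 22.3% lower of all genes. COL22A1, known from muscle-tendon junctions, had 7.27 and 8.98 CPM in the libraries labelled knockout, against 55.8 and 56.9 CPM in WT (log2 fold change -2.79, SE 0.10, adjusted p = 3.26e-11). COL12A1, a collagen of dense connective tissue, had 11.8 and 10.8 CPM in the libraries labelled knockout, against 46.3 and 63.6 CPM in WT (log2 fold change -2.29, SE 0.17, adjusted p = 7.36e-05). COL16A1 had 1.74 and 1.51 CPM in the libraries labelled knockout, against 11.2 and 10.7 CPM in WT (log2 fold change -2.75, SE 0.18, adjusted p = 2.23e-08). These are 6.904-fold, 4.88-fold and 6.73-fold lower levels, on 3 different chromosomes.

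COL21A1 had 2.71 and 2.52 CPM in the libraries labelled knockout, against 9.06 and 9.19 CPM in WT (log2 fold change -1.80, SE 0.17, adjusted p = 1.06e-06). COL14A1, related to COL12A1, fell less, with 15.2 and 14.8 CPM in the libraries labelled knockout and 25.8 and 24.7 CPM in WT (log2 fold change -0.75, SE 0.10, adjusted p = 2.05e-05). The type IX chains coat type II fibrils in cartilage, and their genes differed among themselves. COL9A1 rose, with 10.8 and 11.4 CPM in the libraries labelled knockout and 6.26 and 6.01 CPM in WT (log2 fold change 0.85, SE 0.14, adjusted p = 0.000245). COL9A2 fell, with 13.01 and 13.4 CPM in the libraries labelled knockout and 18.5 and 19.96 CPM in WT (log2 fold change -0.54, SE 0.11, adjusted p = 0.00091). COL9A3, the most abundant of them per kb, had 37.2 and 37.4 CPM in the libraries labelled knockout and 42.9 and 37.5 CPM in WT and did not pass (adjusted p = 0.279). COL19A1 and COL20A1 had at most 1 count in any library.

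All 4 transmembrane collagen genes were tested, and 3 fell and 1 did not pass, against 22.3% lower of all genes tested. COL23A1 (chromosome 5, 177664617 to 178017556, minus strand, hg19), the most abundant of them per kb, had 7.48 and 6.37 CPM in the libraries labelled knockout, against 31.4 and 32.8 CPM in WT, a 4.65-fold fall (log2 fold change -2.22, SE 0.11, adjusted p = 1.28e-09). COL13A1, a collagen of cell-matrix contacts and the neuromuscular junction, had 0.922 and 0.5500 CPM in the libraries labelled knockout, against 3.69 and 2.21 CPM in WT (log2 fold change -2.01, SE 0.35, adjusted p = 0.000355). COL17A1, the hemidesmosome collagen of basal epidermis, had 0.819 and 0.367 CPM in the libraries labelled knockout, against 1.79 and 1.36 CPM in WT (log2 fold change -1.43, SE 0.40, adjusted p = 0.00984). Its call rests on few counts, since the adjusted p was 0.13 without knockout replicate 2, 0.101 without WT replicate 1 and 0.123 with DESeq2. COL25A1 overlapped between the genotypes, at 4.097 and 6.87 CPM in the libraries labelled knockout and 6.88 and 5.95 CPM in WT (adjusted p = 0.469), and it passed as lower without knockout replicate 2 (log2 fold change -0.64, adjusted p = 0.0325).

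Of the remaining 8 genes 4 were tested, and 1 rose, 2 fell and 1 did not pass, against 21.9% higher and 22.3% lower of all genes. COL18A1, a basement membrane collagen whose cleavage yields endostatin, had 574 and 563 CPM in the libraries labelled knockout, against 617 and 613 CPM in WT, and did not pass (log2 fold change -0.11, SE 0.05, adjusted p = 0.0714). COL26A1 had 201 and 209.7 CPM in the libraries labelled knockout, against 289 and 271 CPM in WT (log2 fold change -0.45, SE 0.05, adjusted p = 8.64e-06). COL15A1, a relative of COL18A1 in basement membrane zones, had 2 and 5 counts in the libraries labelled knockout, against 23.5 and 15.5 counts in WT (log2 fold change -2.69, SE 0.54, adjusted p = 0.000936). COL7A1, the anchoring fibril collagen that ties the epidermal basement membrane to the dermis, had 6.56 and 6.05 CPM in the libraries labelled knockout, against 4.08 and 4.65 CPM in WT (log2 fold change 0.53, SE 0.17, adjusted p = 0.0236), a call lost without knockout replicate 1 (adjusted p = 0.0901) or WT replicate 1 (adjusted p = 0.146) and with DESeq2 (adjusted p = 0.198). COL8A1, COL8A2, COL10A1 and COL28A1 were not tested and had at most 12 counts in any library, and COL10A1 lies within NT5DC1 on the other strand, so without strand its few reads cannot be told apart from that gene's.

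The enzymes, chaperones and receptors that act on collagen did not follow the chain genes downward. Of 46 such genes 38 were tested, and 11 rose, 8 fell and 19 did not pass, with a median log2 fold change of 0.12 against 0.00 over all genes tested. The 19 of 38 called are close to the 44.2% of all genes. Only 1 rose and 2 fell by a log2 fold change of 1 or more, against 4.49% and 6.77% of all genes.

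ADAMTS2 (chromosome 5), the protease that removes the amino-terminal propeptide of fibrillar procollagens, had the largest change of this list. It had 9.94 and 10.4 CPM in the libraries labelled knockout, against 116 and 125 CPM in WT, an 11.8-fold fall (log2 fold change -3.57, SE 0.08, adjusted p = 3.24e-13). ADAMTS3, which cleaves the same propeptide, rose slightly, with 39.02 and 41.1 CPM in the libraries labelled knockout and 30.4 and 32.2 CPM in WT (log2 fold change 0.36, SE 0.08, adjusted p = 0.00147). ADAMTS14 was not tested, at 0.336 CPM or less in every library. The carboxy-terminal propeptide is cleaved by BMP1 with the enhancer PCOLCE. BMP1 had 47.1 and 55.1 CPM in the libraries labelled knockout and 44.4 and 49.8 CPM in WT and did not pass (adjusted p = 0.292). PCOLCE had 574 and 712 CPM in the libraries labelled knockout, against 468 and 456 CPM in WT (log2 fold change 0.48, SE 0.10, adjusted p = 0.00789), with an adjusted p of 0.0517 without WT replicate 2.

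Proline hydroxylation stabilizes the collagen helix. In this role 9 genes were tested, and 3 fell and 1 rose, against 22.3% and 21.9% of all genes tested. P3H2 (listed as LEPREL1), a prolyl 3-hydroxylase that acts mainly on type IV collagen, had 23.9 and 21.4 CPM in the libraries labelled knockout, against 52.01 and 51.5 CPM in WT (log2 fold change -1.19, SE 0.08, adjusted p = 1.70e-08). CRTAP, a partner of another prolyl 3-hydroxylase, was lower too (log2 fold change -0.77). P4HB, the subunit shared by prolyl 4-hydroxylases, had 434 and 445 CPM in the libraries labelled knockout, against 516 and 522 CPM in WT (log2 fold change -0.24, SE 0.05, adjusted p = 0.0011). PPIB, a prolyl isomerase, had 264 and 286 CPM in the libraries labelled knockout and 292 and 283 CPM in WT, and did not pass.

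Lysine hydroxylation and glycosylation prepare collagen for cross-linking. In this role 7 genes were tested, and 3 fell and 1 rose, against 22.3% and 21.9% of all genes tested. The lysyl hydroxylase genes PLOD1 and PLOD3 and the galactosyltransferase gene COLGALT2 fell, with log2 fold changes of -0.28, -0.54 and -0.84. FKBP10, a collagen chaperone of this step, rose, with 301 and 318 CPM in the libraries labelled knockout and 238 and 242 CPM in WT (log2 fold change 0.37, SE 0.05, adjusted p = 3.68e-05). PLOD1 had 129 and 139.6 CPM in the libraries labelled knockout and 159.6 and 167 CPM in WT.

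Among 5 chaperone and export genes tested, 3 rose, against 21.9% of all genes tested. SERPINH1, the collagen-specific chaperone HSP47, had 408 and 423 CPM in the libraries labelled knockout, against 331 and 345 CPM in WT (log2 fold change 0.30, SE 0.05, adjusted p = 0.000238). The others were MIA3, which loads large procollagens at the endoplasmic reticulum, and KLHL12, which acts in the same export step. MIA3 had 96.9 and 103 CPM in the libraries labelled knockout, against 60.8 and 60.7 CPM in WT, and KLHL12 had 99.15 and 104 CPM in the libraries labelled knockout, against 58.3 and 59.3 CPM in WT. Both lie on chromosome 1 in stretches where other genes were also higher, with a median log2 fold change of 0.64 over 43 genes within 5 Mb of MIA3 and 0.61 over 66 genes within 5 Mb of KLHL12. Their own log2 fold changes were 0.72 and 0.79.

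All 6 cross-linking genes were tested, and 3 rose and 1 fell, against 21.9% and 22.3% of all genes tested. LOX, the founding lysyl oxidase gene, had 4.200 and 5.500 CPM in the libraries labelled knockout, against 1.68 and 1.81 CPM in WT (log2 fold change 1.48, SE 0.23, adjusted p = 0.00012). The median log2 fold change of 17 genes within 5 Mb of LOX was 0.33. LOXL2, which cross-links type IV collagen, had 55.5 and 48.9 CPM in the libraries labelled knockout, against 77.7 and 75.6 CPM in WT (log2 fold change -0.56, SE 0.07, adjusted p = 2.05e-05). PXDN, the peroxidase that links type IV collagen networks, had 429 and 472 CPM in the libraries labelled knockout, against 371 and 392 CPM in WT (log2 fold change 0.24, SE 0.06, adjusted p = 0.00324), with an adjusted p of 0.0674 without WT replicate 1. LOXL4 was the third that rose, by 0.63 on the log2 scale, a call lost in 5 of the 10 alternative fits that gave a value. Of 9 collagen receptor genes 6 were tested and 1 passed, against 44.2% of all genes tested. ITGB1, the integrin beta chain of the collagen-binding integrins, had 281 and 268 CPM in the libraries labelled knockout, against 250.4 and 233 CPM in WT (log2 fold change 0.18, SE 0.05, adjusted p = 0.0123), a call lost without knockout replicate 1 (adjusted p = 0.0731) or WT replicate 2 (adjusted p = 0.147). DDR1, a collagen-activated receptor kinase, had 296 and 299 CPM in the libraries labelled knockout and 323 and 322 CPM in WT, and did not pass.

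**Figure D4:**
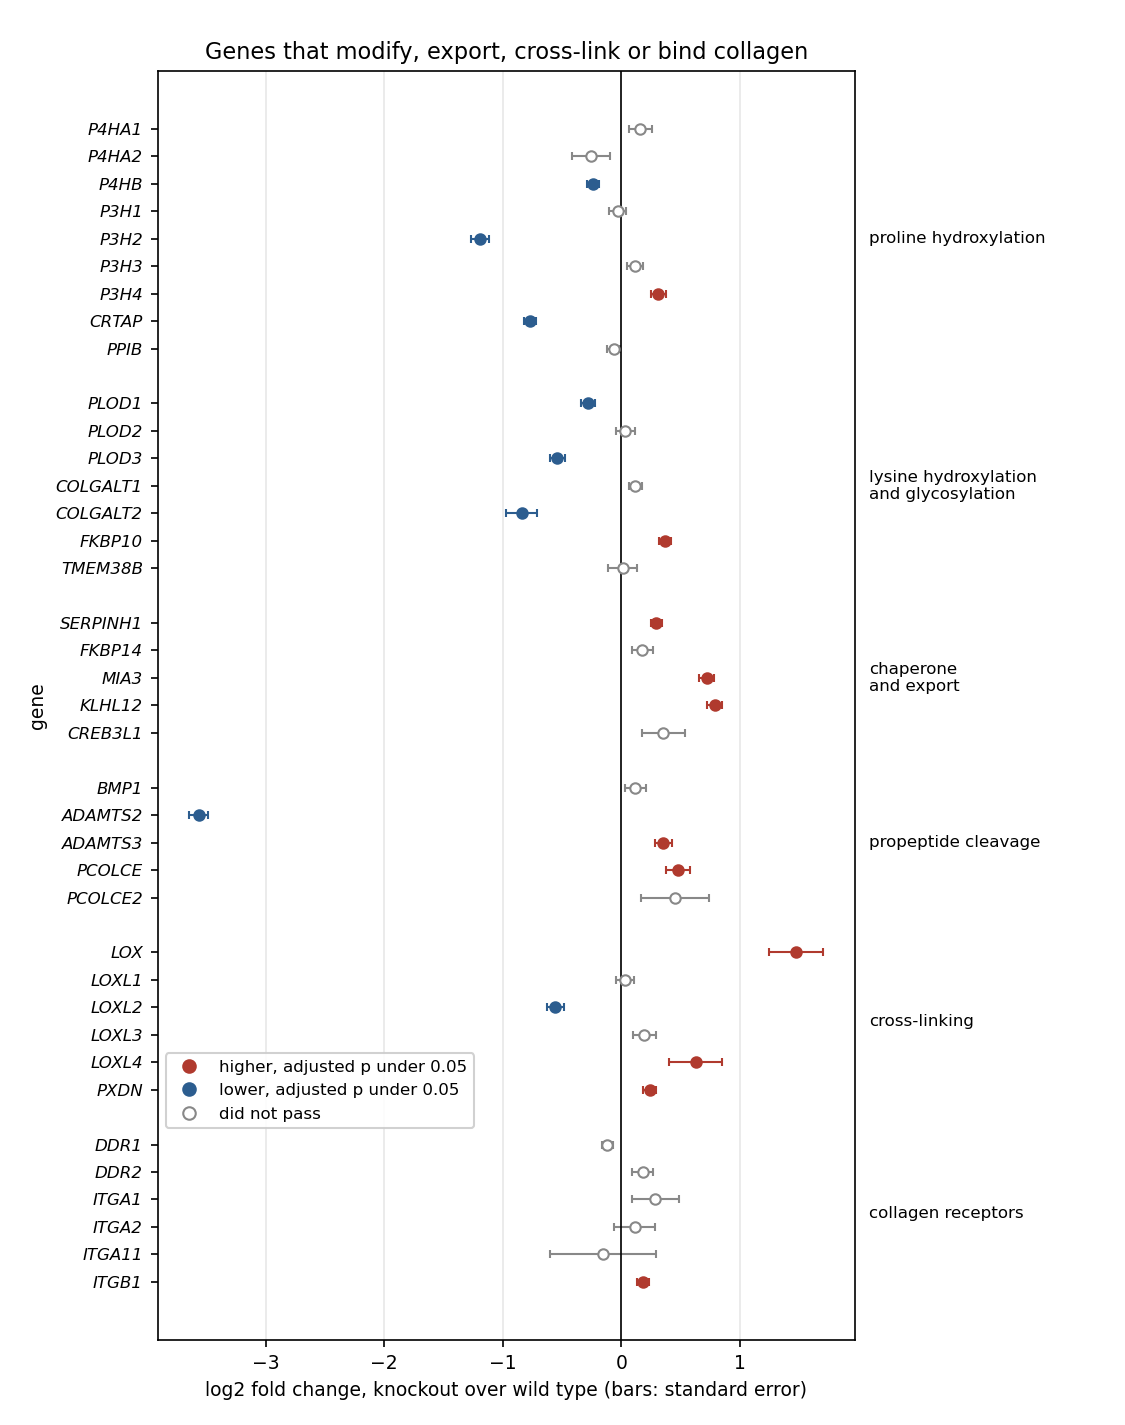
Log2 fold change of 38 tested genes that modify, export, cleave, cross-link or bind collagen, libraries labelled knockout over WT, with standard errors as bars and genes ordered by role. ADAMTS2 at -3.57 and LOX at 1.48 are the ends of the range, and most other genes lie between -1 and 1.

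All 10 surface ectoderm markers were detected in every library, with a summed level of 1952 and 1882 CPM in the libraries labelled knockout and 2440.0 and 2662 CPM in WT. Of the 10, 6 fell, against 22.3% of all genes tested. The genes that fell include TFAP2C, which the titles of the knockout libraries name. Of 10 mesenchyme markers other than collagens 7 fell and 1 rose, against 22.3% and 21.9% of all genes tested, with a summed level of 1009 and 1116 CPM in the libraries labelled knockout and 1556 and 1578 CPM in WT, and none was at 0. PDGFRA, a growth factor receptor gene of mesenchyme, did not pass, at 359.9 and 424 CPM in those libraries and 362 and 359 CPM in WT, and POSTN fell by 2.45 on the log2 scale. Neural crest markers summed to 163 and 157 CPM in the libraries labelled knockout and 427 and 458 CPM in WT, with 4 of 7 tested lower and FOXD3 and SOX10 at 0.205 CPM or less in every library. The part of these shifts in the collagen values was not tested.

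Other marker lists moved as well. The 7 amnion and trophoblast markers summed to 189.6 and 142 CPM in the libraries labelled knockout and 1800.2 and 1922 CPM in WT. Of 6 tested 5 were lower and ISL1 was higher, against 22.3% and 21.9% of all genes tested. Among the lower, CGA and CYP19A1 were at 2.95 CPM or less in every library. Both passed the count filter only through WT, where they are high, so they could be called only as lower. ISL1 was at 14.2 and 8.34 CPM in the libraries labelled knockout and 3.36 and 3.52 CPM in WT. The 8 neural ectoderm markers summed to 332 and 293 CPM in the libraries labelled knockout and 129 and 130.1 CPM in WT. All 6 tested were higher, against 21.9% of all genes tested. Most of the summed difference was CDH2, at 265 and 248 CPM in the libraries labelled knockout and 110 and 112 CPM in WT. SOX1 had 1 count in each WT library and passed the count filter through the libraries labelled knockout. OTX2 and ZIC1 were not tested, at 0.34 CPM or less in every library. The 8 endothelial markers summed to 18.6 and 17.3 CPM in the libraries labelled knockout and 44.01 and 41.6 CPM in WT. Of 3 tested 2 were lower, against 22.3% of all genes tested, and PECAM1 was at 0 counts in all 4 libraries. CDH5, the endothelial cadherin gene, had 0.307 and 0.596 CPM in the libraries labelled knockout and 11.02 and 12.8 CPM in WT, and it passed the count filter through WT. KDR, a VEGF receptor gene, had 1.64 and 2.89 CPM in the libraries labelled knockout and 16.5 and 16.3 CPM in WT. TEK did not pass, at 15.3 and 12.9 CPM in the libraries labelled knockout and 15.2 and 11.6 CPM in WT. TIE1, ERG, ESAM and CLDN5 were not tested, at 0.895 CPM or less in every library, and they differed in direction. The part of these marker lists in the collagen values was likewise not tested.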

How the data were processed

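TopHat, HOMER, DESeq2 and hg38 are named, without versions, in the submitters' processing notes. The sources used here do not give the annotation, strand use or counting settings. The authors deposited estimated counts per gene for the 4 libraries, all multiples of 0.5 and 37.0% of them not whole, which were rounded to whole numbers. Of 23020 genes found in GENCODE 29 (GRCh38), 4.32% began within 2000 bp of their GRCh38 position, no collagen chain gene did, and contig names followed hg19, so gene coordinates are given as hg19. RefSeq windows are GRCh38.p14. Genes were filtered with filterByExpr, scaled with TMM and tested with edgeR 4.0.16 (glmQLFit, robust, and glmQLFTest) in R 4.3.3 on genotype alone, on the whole table. An SE is the log2 fold change over the square root of F. The test was run on counts simulated from its own model with the dispersions of these libraries. Such counts cannot check how far separate cultures would differ. Depth of 3 counts corresponds to 0.137 to 0.17 CPM. Groups came from the genotype label.

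Members and lists were chosen with earlier results of these data known. Values are given for members past the threshold whose log2 fold change was 1 or more in size or whose mean was at least 50 CPM, with their partner chains, for the enzyme list by the same fold rule and for the 2 per role with the highest CPM, and other genes were named after their values were seen. All 106 list symbols were found, 5 by an older symbol. The surroundings of genes (5 Mb), chain ratios and promoter motif search were added after seeing the data. Alternatives were DESeq2 1.42.0, limma-voom (limma 3.58.1), RLE and upper-quartile factors, other low-count filters, the replicate number as a block and leaving out each library.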

Additional observations from a re-analysis of the deposited data

How the results depend on the processing

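Of 30 collagen chain genes called, 24 kept their call and direction in every alternative fit that gave a value (the fold requirement apart), and 6 lost it in some: COL3A1, COL4A4, COL4A5, COL4A6, COL7A1 and COL17A1. Counts of collagen chain genes that rose ranged from 5 to 6 and of those that fell from 20 to 22 when each library was left out, and for the enzyme and receptor genes 8 to 13 rose and 8 fell each time. A required log2 fold change of 1 left 2 collagen chain genes higher and 15 lower, 1 and 2 enzyme and receptor genes, and 703 and 1059 of all genes. DESeq2 called 5 collagen chain genes higher and 20 lower, against 7 and 23 in edgeR. Over all genes it called 2262 higher and 2435 lower, against 3427 and 3492 in edgeR. The replicate number as a block gave 6 collagen chain genes higher and 22 lower, and 3050 and 3154 of all genes. The calls it ended were those of COL4A4 and COL4A5 and, in the enzyme list, LOXL4. Deviations of same-numbered libraries correlated at -0.049 over the genes tested, and with 2 libraries a group the numbers were not taken as pairs. Log2 fold changes turned sign in 5 genes that were not called, where leaving out each library gave -0.64 to 0.10 for COL25A1, -0.11 to 0.050 for P3H1, -0.048 to 0.12 for PLOD2, -0.088 to 0.11 for TMEM38B and -0.053 to 0.12 for LOXL1. COL25A1 was positive without knockout replicate 1. Over all genes, leaving out each library gave 2535 to 2922 higher and 2697 to 2919 lower. The cause of these differences was not tested. The 9 members not tested were at 12 counts or fewer, or 13 in COL24A1, where a difference was not detectable at this depth.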
